A study of Mus musculus with 6 samples.

Results

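The hypothalamic neuropeptide genes Pmch, Hcrt, Avp, Oxt, Trh, Crh, Agrp, Pomc, Cartpt and Gal were followed as 10 of the 19465 genes counted in each section, and all 10 had UMIs (unique molecular identifiers, 1 per captured transcript) in all 6 sections. They were chosen by gene symbol as precursors of peptides by which the hypothalamus is known. The sections were coronal, formalin-fixed and paraffin-embedded brain hemispheres of male, untreated wild-type C57BL/6J mice, with 2 mice at postnatal day 21 (P21), 2 adult mice of 12 to 15 weeks and 2 aged mice of 28 months. P21 mice were bred in house, adult mice came from a commercial breeder and aged mice from an ageing colony. The paper names only Jackson Laboratory as the source, for all ages alike. With sources that differ by age, source and age cannot be told apart. Tissue of the younger ages was mounted on Visium version 1 slides. Aged tissue was transferred by CytAssist to version 2 slides, so that slide version and age cannot be told apart for the aged mice.

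Neuropeptides are cut from larger precursors, packed into dense-core vesicles and released far from, as well as at, synapses. Melanin-concentrating hormone (Pmch) and orexin (Hcrt) neurons lie in the lateral hypothalamus and are known for feeding, sleep and arousal, vasopressin (Avp) and oxytocin (Oxt) are made in the supraoptic and paraventricular nuclei and sent to the posterior pituitary, and Agrp and Pomc neurons of the arcuate nucleus raise and lower food intake. Because these cell groups do not all span the same stretch of the front-to-back axis of the brain, the level of a coronal section bears on which of them it holds.

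The 10 genes lie on 9 chromosomes of the mouse genome GRCm38 (GENCODE vM21), and Avp and Oxt are neighbours on chromosome 2. Avp spans chr2:130580620-130582554 on the minus strand and Oxt chr2:130576173-130577054 on the plus strand. Their coding sequences, of 504 and 375 bases without the stop codon, share an identical run of 127 bases and 78 stretches of 50 bases, whereas the longest run shared by any other pair of members was 14 bases. Since the assay counts ligated probe pairs whose sequences were not used here, a probe inside that run could not separate both genes, and their counts are uncertain to that extent. The run, shown because it bears on every comparison of Avp with Oxt, covers bases 131 to 257 of the Avp and 119 to 245 of the Oxt coding sequence.
Avp and Oxt shared coding run: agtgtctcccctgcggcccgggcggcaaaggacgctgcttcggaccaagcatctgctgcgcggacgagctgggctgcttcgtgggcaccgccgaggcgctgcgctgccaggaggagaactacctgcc

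The 250 bases before the RefSeq transcription start (GRCm38.p6) were read for the members in the promoter table, which holds 8 of the 10 and leaves Agrp and Crh named only. TATAAA (either strand) was found in Pmch, Hcrt and Pomc, and in 12.4% of 32817 mouse promoters of this length. TGACC, the core of elements bound by nuclear receptors, was searched on both strands. It occurred 5 times in Oxt, a count reached by 0.0427% of promoters, and was not found in these windows of Avp, Pmch or Hcrt, whereas 35.2% of promoters held at least 1 copy. The cAMP response element TGACGTCA was found in Cartpt alone among the 8, and in 1.55% of promoters. The promoters of the pairs that shared spots (Pmch with Hcrt, Avp with Oxt) are shown, with TATAAA and TGACC (or its reverse complement GGTCA) in capitals. A match is a description of letters and not a bound site.
Pmch, chr10:88090822-88091071, plus strand: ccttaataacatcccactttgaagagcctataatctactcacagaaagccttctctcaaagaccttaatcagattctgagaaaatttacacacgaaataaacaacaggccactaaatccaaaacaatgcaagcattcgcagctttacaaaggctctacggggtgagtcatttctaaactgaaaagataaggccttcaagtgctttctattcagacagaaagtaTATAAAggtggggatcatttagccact
Hcrt, chr11:100762932-100763181, minus strand: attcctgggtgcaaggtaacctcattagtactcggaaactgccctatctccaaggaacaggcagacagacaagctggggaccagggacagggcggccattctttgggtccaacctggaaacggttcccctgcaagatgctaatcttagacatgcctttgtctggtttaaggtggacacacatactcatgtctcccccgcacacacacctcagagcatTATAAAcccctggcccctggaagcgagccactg
Avp, chr2:130582589-130582838, minus strand: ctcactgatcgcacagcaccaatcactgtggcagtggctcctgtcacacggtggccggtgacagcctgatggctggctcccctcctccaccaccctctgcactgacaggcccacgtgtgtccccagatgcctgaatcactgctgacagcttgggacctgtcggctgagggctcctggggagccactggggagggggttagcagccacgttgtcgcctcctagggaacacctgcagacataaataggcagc
Oxt, chr2:130575919-130576168, plus strand: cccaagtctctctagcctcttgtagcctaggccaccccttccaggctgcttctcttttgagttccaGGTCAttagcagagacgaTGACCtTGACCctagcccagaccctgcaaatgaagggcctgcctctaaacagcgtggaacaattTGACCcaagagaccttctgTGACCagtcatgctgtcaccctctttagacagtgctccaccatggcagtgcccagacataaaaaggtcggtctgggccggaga

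After removal of spots under 250 genes or 500 UMIs, 2917 to 3679 spots remained per section, with 42422997 to 106783660 UMIs in all and medians of 12074.5 to 25535 UMIs a spot. Each spot is a small area that can hold several cells. Spots were clustered without the 10 genes, and 2 clusters scored highest for hypothalamic markers (Baiap3, Hap1, Gpr101, Resp18, Zcchc12, Magel2, Peg10, Dlk1, Ngb). Together they formed a hypothalamic region of 699 and 615 spots in P21 mice 1 and 2, 367 and 435 in the adult mice and 622 and 861 in the aged mice. The panels compared included none for the amygdala, so the region may hold spots outside the hypothalamus, which was not tested. This limit holds for every regional value and test below. The summed level of the 9 markers was 2017 to 4036 CPM (the gene's UMIs in each 1000000 UMIs) in that region against 648 to 1291 over whole sections. Levels below are CPM of the section, region or spot, and are not compared between genes, whose probes differ.

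The sections were not taken at one level of the hypothalamus, and this bears on every result. Foxb1, of the mammillary nuclei, was at 3.88 CPM in aged mouse 2 and at 0.93 to 1.70 elsewhere. Ghrh and Ppp1r17, of the arcuate and neighbouring medial nuclei, were at 8.76 and 8.10 in P21 mouse 1 and at 11.6 and 9.83 in P21 mouse 2, against 0.42 to 1.87 and 0.93 to 1.79 in the 4 other sections. Nr5a1, of the ventromedial nucleus, was at 1.81 and 0.57 at P21, 0.019 and 1.01 in the adult mice and 2.17 and 0.35 in the aged mice. The adult mice thus differed from each other in Nr5a1, the aged mice in Nr5a1 and Foxb1, and the P21 pair stood apart from the rest in Ghrh and Ppp1r17, so that the level of the section and the age of the mouse cannot be told apart in the age comparisons. In such sections fewer cells of a type and less RNA per cell also cannot be told apart.

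**Figure D1:**
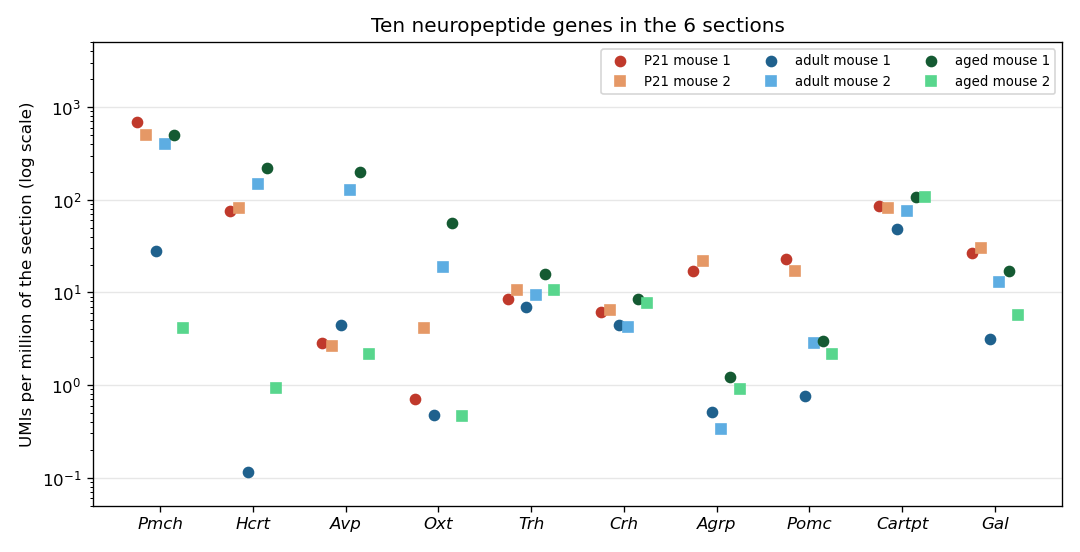
Level of each neuropeptide gene in CPM of the section (log scale), with 1 point for each of the 6 sections. Pmch, Hcrt, Avp and Oxt are far apart between the 2 adult and between the 2 aged sections, Agrp and Pomc are high in both P21 sections, and Crh, Trh and Cartpt stay in a narrow range.

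Pmch had a large area of high spots in 4 sections and 5 or 6 high spots in the 2 others. It was at 688 and 497 CPM in P21 mice 1 and 2, at 28.2 and 397 in adult mice 1 and 2, and at 502 and 4.18 in aged mice 1 and 2. Adult mouse 1 and aged mouse 2 were the 2 low ones. The aged values overlapped those of both other ages, whereas both P21 values lay above both adult values. A spot was called high for a gene at 500 CPM or more and at least 5 UMIs. Centres of high spots given below are weighted by UMIs and cover only those in the hypothalamic region. There were 993 and 441 high Pmch spots at P21, 6 and 266 in the adult mice and 331 and 5 in the aged mice. Within the hypothalamic region Pmch was at 2930, 1843, 182, 2625, 4685 and 21.2 CPM in the same order, and in all 6 sections that region held its highest level.

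In the 2 low sections the few high Pmch spots lay together. The 6 high spots of adult mouse 1 touched each other in 1 group and held 53.9% of the gene's UMIs. Their centre lay 17.0 spot spacings above the ventral and 12.6 from the medial edge of the hypothalamic region. The 5 high spots of aged mouse 2 also formed 1 group, 16.5 above the ventral and 22.2 from the medial edge, with 51.3% of the UMIs. In the other 4 sections the centre of the high spots lay 12.2 to 13.4 spacings above the ventral edge. The medial cluster of the region, described next, also lay higher in adult mouse 1 and aged mouse 2. Its median height was 15.6 and 19.0 there, against 11.4 to 13.1 in the other 4. The vertical axis ran from the centre of each section's hippocampal spots to that of its hypothalamic region spots. Heights are thus not in one frame between sections. Of the 2 clusters of the region, that led by Pmch and Hcrt lay medially, at a median of 6.40 to 11.4 spacings from the medial edge. The second, led by Ccdc42 and Baiap3, lay laterally at 19.9 to 33.0, and whether it belongs to the hypothalamus was not tested. It held 197 of the 435 region spots in adult mouse 2 and 140 of 861 in aged mouse 2. Pmch was at 4141 CPM in the medial and 71.1 in the lateral cluster of adult mouse 2, and at 3465 and 412 in P21 mouse 1.

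Hcrt, the orexin precursor, was low in the same 2 sections as Pmch. It was at 76.4 and 80.8 CPM at P21, at 0.11 and 147 in the adult mice and at 222 and 0.92 in the aged mice. Adult mouse 1 had 6 Hcrt UMIs in all and aged mouse 2 had 98, and the spots with the highest Hcrt level in them held 1 and 2. The numbers of high Hcrt spots were 86 and 44 at P21, 0 and 93 in the adult mice and 173 and 0 in the aged mice. A count of 0 allows a share of up to 0.103% of the 2917 spots of adult mouse 1 and up to 0.0841% of the 3569 spots of aged mouse 2, for counting error only.

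High Hcrt spots lay almost wholly within the area of high Pmch spots, but that area was wide. Of the hypothalamic region spots, 527 of 699 in P21 mouse 1 and 323 of 615 in P21 mouse 2 were high for Pmch. The numbers were 157 of 435 in adult mouse 2 and 305 of 622 in aged mouse 1. Much overlap was thus likely for any gene of this region, most so at P21, and the shares below are read against these. All 86 high Hcrt spots of P21 mouse 1 were also high for Pmch (exact 95% binomial interval 95.8 to 100%), as were 37 of 44 in P21 mouse 2 (84.1%, 69.9 to 93.4%), 88 of 93 in adult mouse 2 (94.6%, 87.9 to 98.2%) and all 173 in aged mouse 1 (97.9 to 100%). Seen from Pmch, the shared spots made 8.66%, 8.39%, 33.1% and 52.3% of its high spots. The 2 genes separated more at a higher threshold chosen after the values were seen: of spots with 5000 CPM or more, 4 of 7 Hcrt spots were also Pmch spots in P21 mouse 1, 1 of 10 in P21 mouse 2, 4 of 23 in adult mouse 2 and 52 of 86 in aged mouse 1. In those spots the centres of the 2 genes were 3.17, 2.82, 1.74 and 1.07 spacings apart. Hcrt lay dorsal to Pmch in P21 mouse 1 (15.3 against 12.4 spacings above the ventral edge) and aged mouse 1 (14.4 against 13.3), and level with it in the other 2 (13.3 against 13.3, and 12.9 against 12.8).

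**Figure D2:**
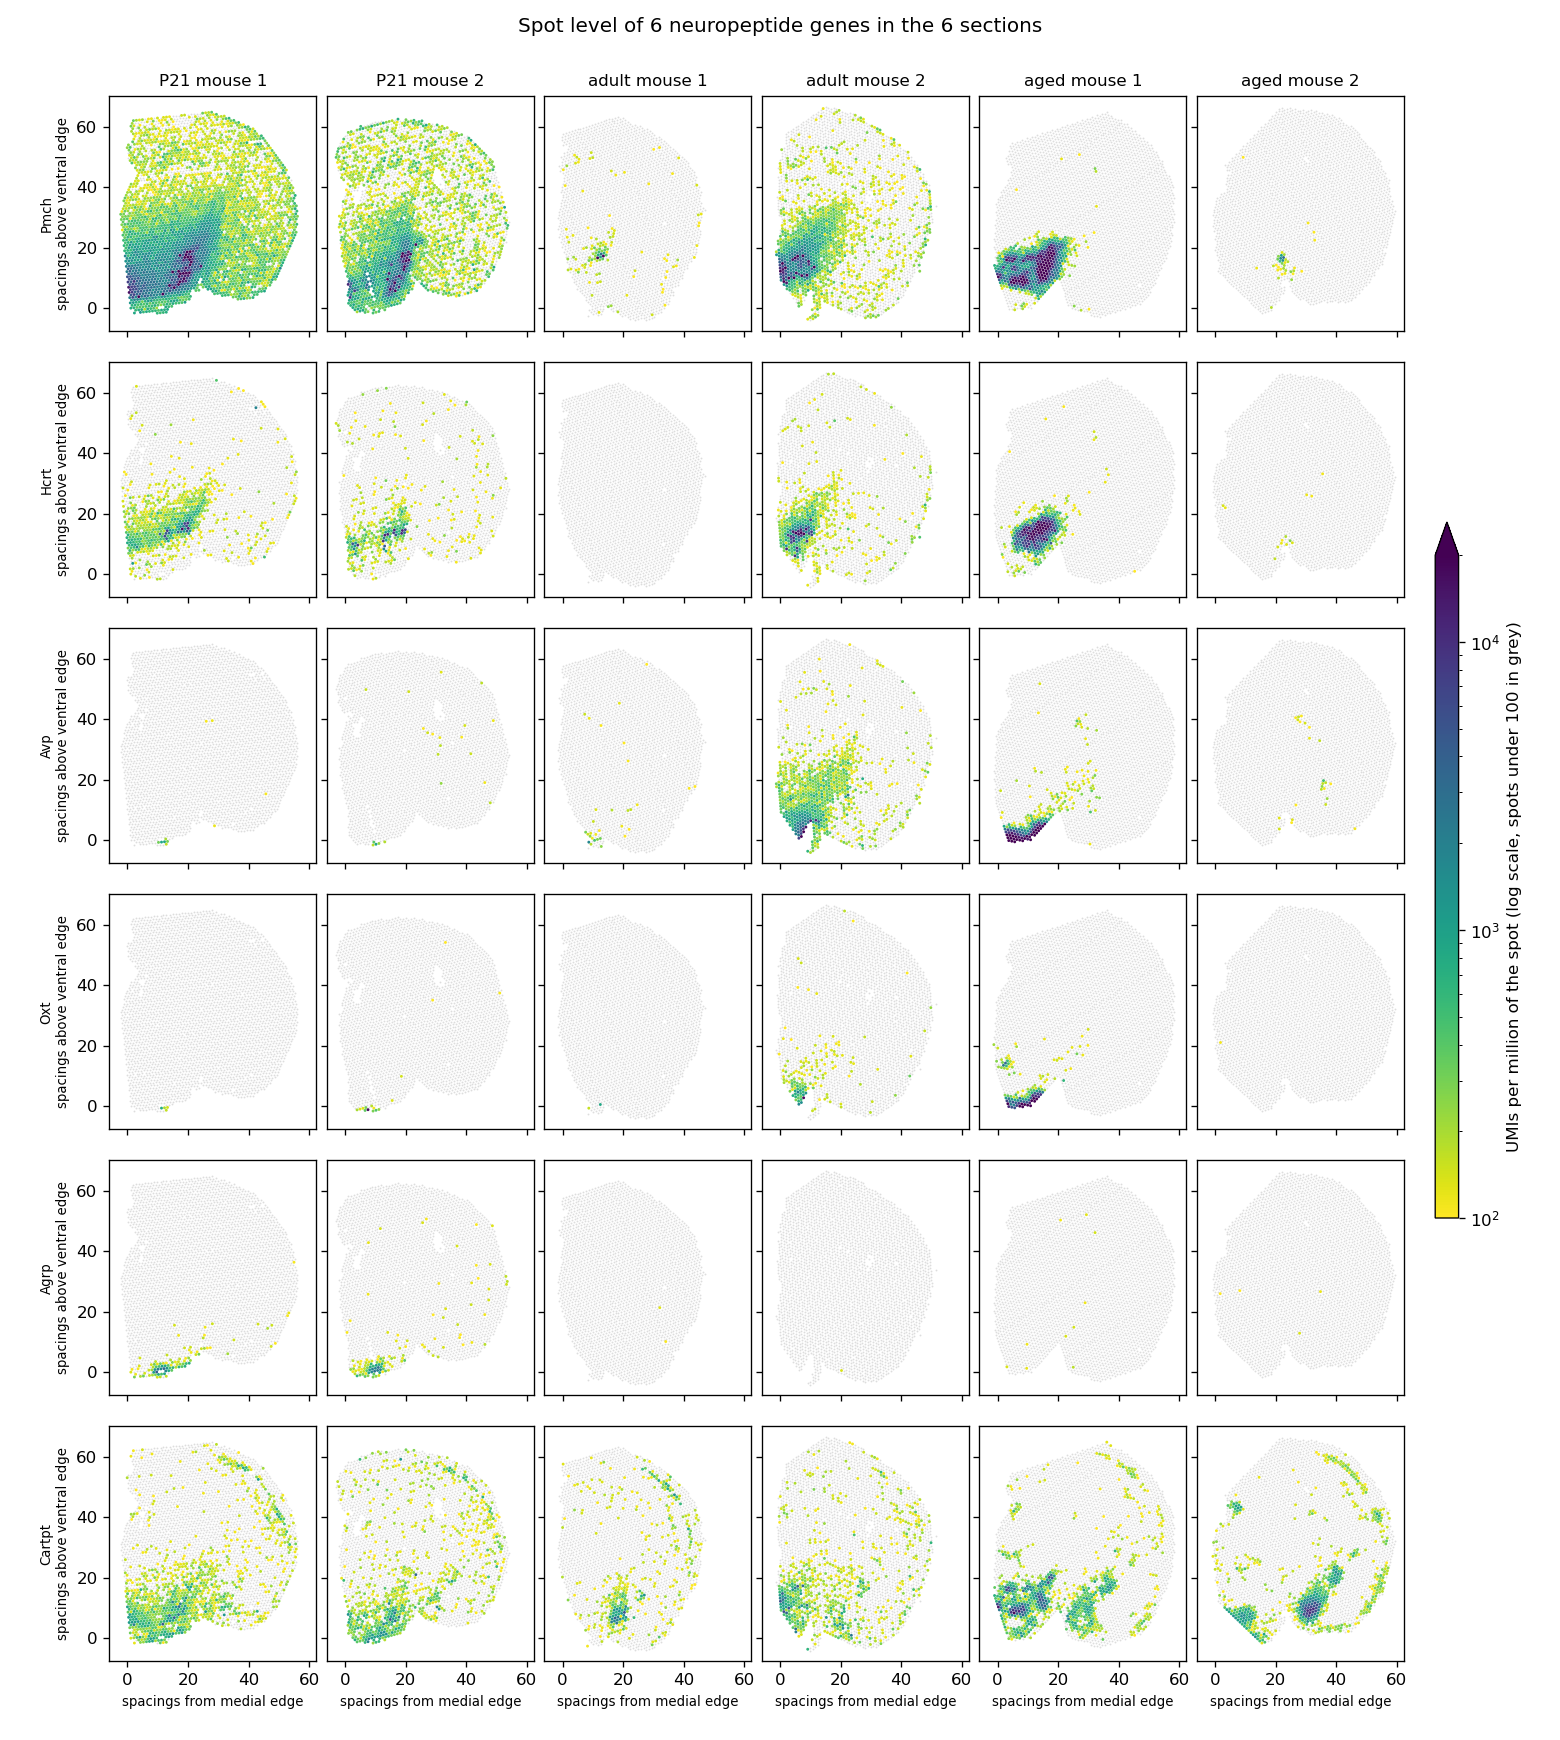
Spots of each section drawn by distance from the medial edge and height above the ventral edge of the hypothalamic region, in spot spacings, and coloured by CPM of the spot on a log scale from 100 (grey below). Rows are Pmch, Hcrt, Avp, Oxt, Agrp and Cartpt and columns the 6 sections: Pmch and Hcrt share an area in 4 sections, Avp and Oxt line the ventral edge in adult mouse 2 and aged mouse 1, Agrp sits at the ventral edge of both P21 sections, and Cartpt is present in all 6.

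The reach of Pmch beyond the hypothalamus differed between sections. In the cortical region, outside the known Pmch cell groups, its level was 5.06% and 5.67% of the hypothalamic level at P21, 2.57% and 1.39% in the adult mice, and 0.0217% and 1.62% in the aged mice. With each spot thinned to 5000 UMIs, 55.0% and 41.9% of cortical spots at P21 had a Pmch UMI, against 2.67% and 17.5% in the adult and 0.767% and 0.0865% in the aged mice. The corresponding shares in the hypothalamic region were 93.0%, 84.7%, 18.9%, 60.7%, 56.1% and 3.26% (unthinned 99.6%, 94.96%, 37.3%, 74.9%, 61.9% and 8.94%). Thinning left out at most 28 shallower spots of a region. The cortical share is the background against which the hypothalamic share is read, and in adult mouse 1 and aged mouse 2 both were low.

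The level was lower with distance from the strongest spots in all 4 sections that had them in number. From 3.5 spacings on it was lowest in aged mouse 1. Spots with 5000 CPM or more (72, 38, 30 and 123 in P21 mice 1 and 2, adult mouse 2 and aged mouse 1) had Pmch levels, pooled over the spots, of 16507, 18129, 21548 and 21071. At 0.5 to 1.5 spacings the levels were 3109, 1944, 2266 and 2494, so aged mouse 1 was not the lowest there. At 3.5 to 6.5 spacings from the nearest of them the levels were 1254, 589, 496 and 66.8, and at over 20.5 spacings 145.3, 108, 44.8 and 1.58. Hcrt at over 20.5 spacings was at 17.5, 9.60, 11.9 and 1.47, and Avp at 26.0 in adult mouse 2 and 3.40 in aged mouse 1. The levels of the strongest spots are set in part by their threshold and are not compared. The distance bands were set after the maps were seen, only 1 aged section had enough strong spots, and the cause was not tested. Slide version and age cannot be told apart here.

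**Figure D3:**
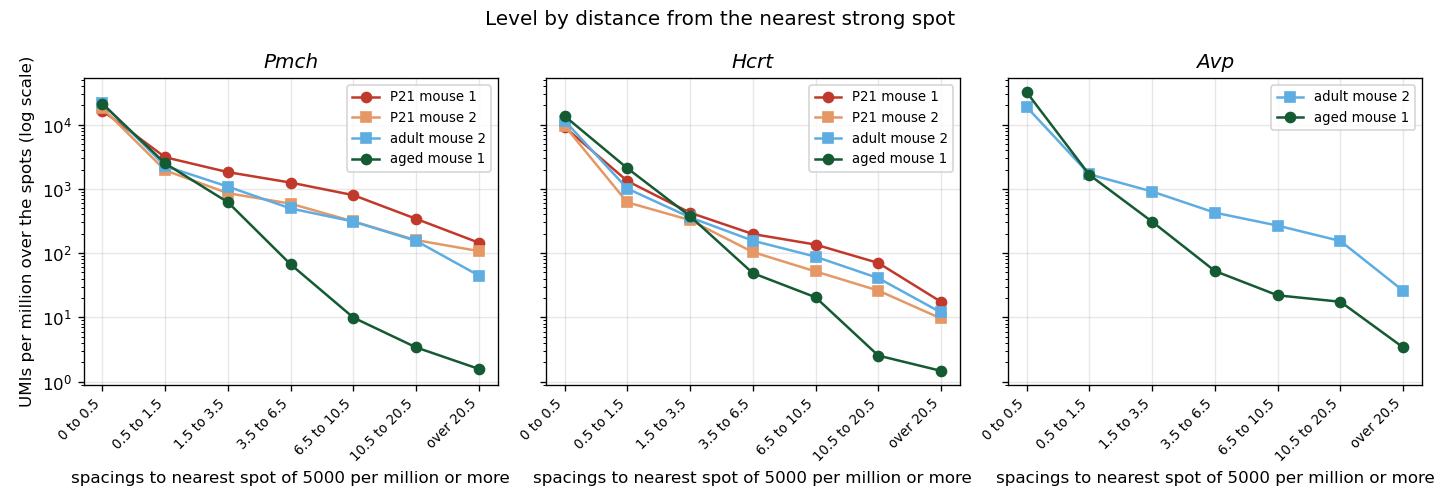
Level of Pmch, Hcrt and Avp in CPM (log scale) by distance, in spot spacings, from the nearest spot of 5000 CPM or more, for sections with at least 5 such spots. From 3.5 to 6.5 spacings on, the line of aged mouse 1 lies below those of the P21 and adult sections for all 3 genes, down to 1.58 CPM for Pmch beyond 20.5.

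Avp and Oxt, the neurohypophysial hormones, were abundant in 1 adult and 1 aged section. Avp was at 2.84 and 2.64 CPM at P21, at 4.42 and 127 in the adult mice and at 199 and 2.17 in the aged mice. Oxt was at 0.70 and 4.10 at P21, 0.48 and 18.9 in the adult mice and 56.3 and 0.46 in the aged mice. The same 2 sections, adult mouse 2 and aged mouse 1, were high for both genes. The other 4 were at 2.17 to 4.42 for Avp and 0.46 to 4.10 for Oxt. For Avp both P21 values lay below both adult values and between the 2 aged ones. For Oxt they lay between the 2 adult and between the 2 aged values. The high spots numbered 123 for Avp and 18 for Oxt in adult mouse 2, and 73 and 50 in aged mouse 1. No other section had more than 2 for either gene.

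In aged mouse 1 the Avp signal was compact: all 73 high spots touched in 1 group. The centre of the 69 in the hypothalamic region lay 1.25 spacings above the ventral edge, and their median height was 2.70. The top 1% of spots held 89.99% of the Avp and 91.8% of the Oxt UMIs. One spot had 1910 Avp UMIs, or 101391 CPM of its UMIs. In adult mouse 2 the high Avp spots fell into 28 groups, of which the largest had 88 spots. The centre of the 82 in the hypothalamic region was 4.37 spacings above the ventral edge, and their median height was 7.76. All 18 high Oxt spots of adult mouse 2 were high for Avp (exact 95% binomial interval 81.5 to 100%), and 46 of 50 in aged mouse 1 (92%, 80.8 to 97.8%), while they made 14.6% and 63.0% of the high Avp spots. At 5000 CPM or more, all 24 Oxt spots of aged mouse 1 were among its 47 Avp spots, with centres 1.74 spacings apart and Oxt the more lateral (8.93 against 7.19 spacings from the medial edge).

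In the P21 sections and adult mouse 1 the spots with the highest Avp and Oxt levels lay near the ventral edge, at heights of -1.36 to 0.54 spacings. Aged mouse 2 had no high spot for either gene, and its top spots (9 Avp UMIs and 1 Oxt UMI) lay at heights of 19.7 and 21.4. The top Oxt spot of P21 mouse 2 had 65 UMIs in a spot of 3786 (17169 CPM) and held 37.4% of the section's Oxt. It belonged to the region with meningeal markers at the ventral edge and also had the section's highest Pomc level. In P21 mouse 1 the top Avp spot (17 UMIs) and the top Oxt spot (20 UMIs) lay in the same kind of region, at heights of -0.54 and -0.65 spacings from the ventral edge. Avp was also counted in the reticular thalamic region, the strip marked by Six3 and Pvalb. It was at 29.0 and 19.0 CPM there at P21, 27.0 and 135 in the adult mice and 60.9 and 45.1 in the aged mice. That region of 26 to 53 spots was the highest of 9 for Avp in 3 sections. In the others the region with meningeal markers was above it (23.3 in P21 mouse 2, 175 in adult mouse 2 and 287 in aged mouse 1), as were the fiber tracts of adult mouse 2 (223).

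Agrp, the melanocortin antagonist of the arcuate nucleus, was measured mainly at P21. It was at 16.9 and 21.6 CPM at P21, 0.51 and 0.33 in adult mice and 1.21 and 0.90 in aged mice, so the P21 values did not overlap with the rest. The 18 and 17 high spots at P21 held 59.6% and 62.9% of its UMIs. Of these, 12 and 15 lay in the hypothalamic region, with centres 0.87 and 1.10 spacings above the ventral edge. The other 6 and 2 lay in the region with meningeal markers, where Agrp was at 83.9 and 47.3 CPM at P21. No adult or aged section had a high spot, and the spot of highest level held 1 UMI in each of them. In the hypothalamic region Agrp was at 81.1 and 90.3 CPM at P21, 0.52 and 1.03 in the adult and 2.20 and 1.34 in the aged mice. Its spatial autocorrelation (Moran's I, as deposited) was 0.485 and 0.536 at P21 and -0.0070 to 0.0085 in the adult and aged sections.

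Pomc, the precursor of the melanocortin agonists that Agrp opposes, was at 23.0 and 17.2 CPM at P21, 0.76 and 2.83 in the adult and 2.95 and 2.15 in the aged mice. Again the 2 P21 sections stood above the others without overlap. Of the high Pomc spots, 6 of 26 in P21 mouse 1 (23.1%, exact 95% binomial interval 8.97 to 43.6%) and 8 of 18 in P21 mouse 2 (44.4%, 21.5 to 69.2%) were high for Agrp too. In the hypothalamic region Pomc was at 69.1 and 66.0 at P21, 0.34 and 11.5 in the adult and 20.4 and 2.27 in the aged mice, so that aged mouse 1 and adult mouse 2 lay above the other adult and aged sections. Aged mouse 1 had 5 high Pomc spots, all in the hypothalamic region, and no high Agrp spot.

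Part of the Pomc signal lay in spots that also held pituitary transcripts. The top Pomc spot of P21 mouse 1, with 412 UMIs (17187 CPM), was 35.1 spacings from the medial edge, and its neighbour had 86 UMIs of Gh and 23 of Prl, growth hormone and prolactin. In that section 20 spots with at least 5 UMIs of 8 anterior pituitary genes held 724 of the 2074 Pomc UMIs, and without them Pomc was at 15.1 in place of 23.0 CPM. In P21 mouse 2, 7 such spots held 74 of 729 UMIs (15.5 without them), and in aged mouse 2, 9 spots held 36 of 230 (1.82 without them). The 7 high Pomc spots of aged mouse 2 formed 1 group in the region with meningeal markers, and that section had none in the hypothalamic region. The 3 other sections had no such spot. The 8 pituitary genes together were at 11.7 and 5.21 CPM at P21, 0.36 and 0.31 in the adult mice and 2.28 and 3.45 in the aged mice, and were all detected in P21 mouse 1 and both aged mice, while Gh and Prl were at 0 in P21 mouse 2. In P21 mouse 1, 169 of the 515 Gh UMIs lay in the hypothalamic region. Pomc was at 101 CPM in the lateral and 62.4 in the medial cluster of that region, against 10.7 and 79.1 in P21 mouse 2. The regional Pomc levels and test were not computed without pituitary spots.

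Cartpt, which encodes a peptide that reduces feeding and is made in many nuclei, was the steadiest of the lateral and arcuate genes. It was at 86.0 and 82.0 CPM at P21, 48.2 and 76.6 in the adult mice and 108 and 108 in the aged mice, and the 3 ages did not overlap. The hypothalamic region was its highest in all 6 sections, at 280, 246, 146, 372, 727 and 375 CPM. Its place changed with the section. In adult mouse 1 and aged mouse 2, where Pmch was low, the high Cartpt spots lay laterally, with centres 18.7 and 26.6 spacings from the medial edge, and in the other 4 sections at 5.04 to 12.9. In adult mouse 1 Cartpt was at 383 CPM in the lateral and 43.8 in the medial cluster of the region, the reverse of P21 mouse 1 (143 and 309). In aged mouse 2 it was at 1663 in the lateral and 131 in the medial cluster. The medial cluster alone was below the fiber tracts (50.6), the cortical (46.6) and the striatal region (44.8) in adult mouse 1. In aged mouse 2 it was below the striatal region (140). The lateral cluster may lie outside the hypothalamus, as given above. None of the 43 and 171 high Cartpt spots of adult mouse 1 and aged mouse 2 was high for Pmch (exact 95% binomial upper limits 8.22% and 2.13%). These sections had only 6 and 5 high Pmch spots, so little overlap was possible and no separation of the 2 genes can be read from it. In the other sections, with 266 to 993 high Pmch spots, the share was 56.5% to 73.5%. Cortical spots were also high, with 12 and 10 at P21, 10 and 2 in the adult mice and 18 in aged mouse 2. High striatal spots numbered 1 in P21 mouse 2, 2 and 6 in the adult mice and 17 and 24 in the aged mice.

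**Figure D4:**
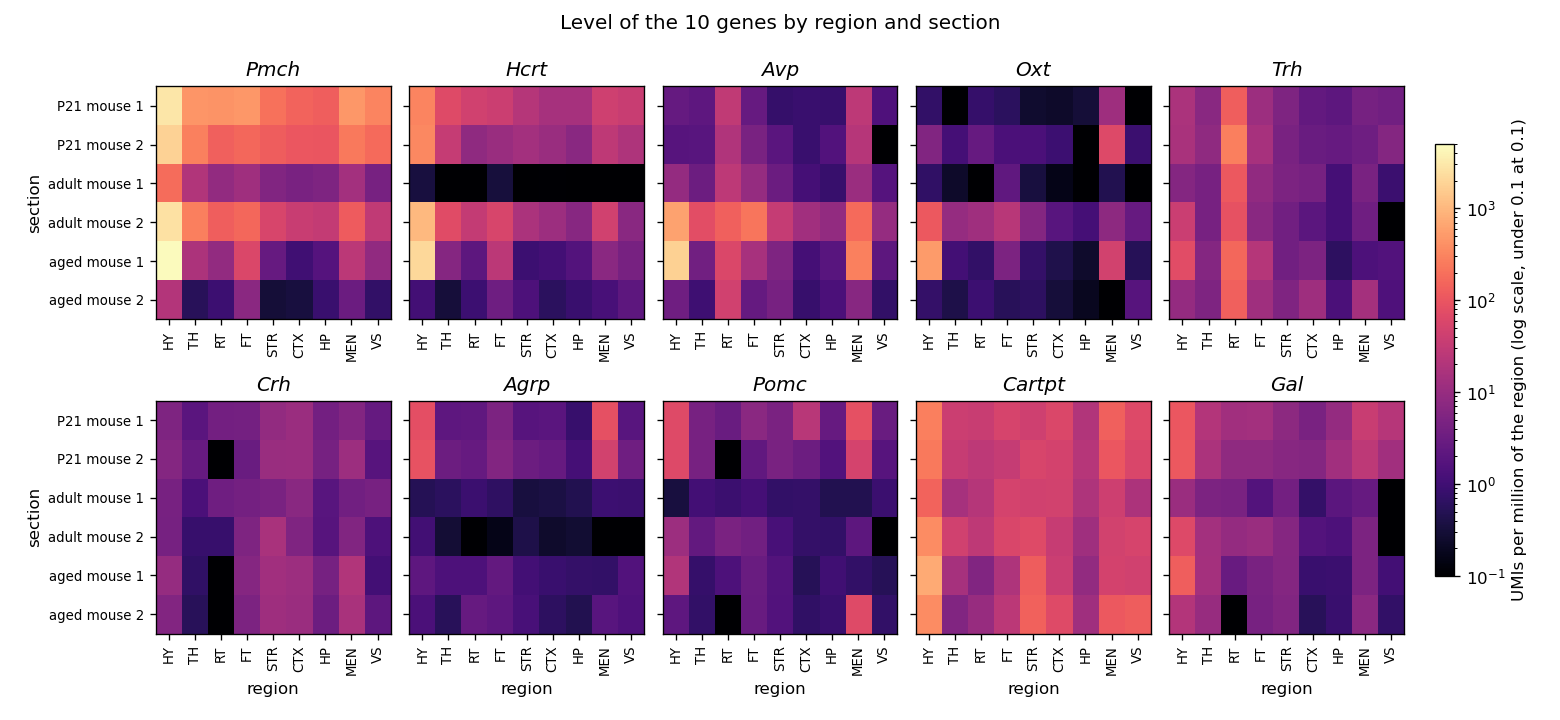
Level of each gene in CPM of the region (log scale, values under 0.1 drawn at 0.1) in 9 regions (HY hypothalamic, TH thalamic, RT reticular thalamic, FT fiber tracts, STR striatal, CTX cortical, HP hippocampal, MEN meningeal markers, VS ventricular markers) of the 6 sections. HY is brightest for Pmch, Cartpt and Gal in all 6 sections, RT for Trh in all 6, and Crh shows no hypothalamic maximum. In adult mouse 1 and aged mouse 2 the Cartpt maximum came from the lateral cluster of HY.

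Gal, the galanin precursor, was at 26.5 and 30.5 CPM at P21, 3.14 and 12.9 in the adult mice and 17.0 and 5.65 in the aged mice. It was highest in the hypothalamic region in all 6 sections (105, 109, 11.2, 66.6, 127 and 21.3 CPM). Adult mouse 1 and aged mouse 2 were again the low sections, and over whole sections the P21 values lay above all others, whereas within the hypothalamic region aged mouse 1 lay above both. Its high spots numbered 19 and 22 at P21, 2 and 10 in the adult mice and 53 and 3 in the aged mice, so the largest number came from aged mouse 1.

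Trh, the precursor of thyrotropin-releasing hormone, and Crh, that of corticotropin-releasing hormone, were the members whose highest region was the hypothalamic one in none of the 6 sections, against 2 sections each for Avp, Oxt and Agrp and 3 for Pomc. Trh was at 8.49 and 10.5 CPM at P21, 6.90 and 9.37 in the adult mice and 15.7 and 10.5 in the aged mice. Its highest region was the reticular thalamic one in 6 of 6 sections, at 130, 280, 108, 89.3, 160 and 132 CPM, against 16.7, 16.4, 6.21, 38.7, 75.5 and 9.50 in the hypothalamic region. Aged mouse 1 had 29 of its 30 high Trh spots in the hypothalamic region, whereas 14 of the 17 in aged mouse 2 were cortical spots near the ventral surface, at a median of 5.16 spacings above the ventral and 27.9 from the medial edge. Crh was at 6.22 and 6.51 at P21, 4.48 and 4.196 in the adult mice and 8.52 and 7.73 in the aged mice, without overlap between ages. Its cortical level was 122% to 210% of the hypothalamic one, and a single spot in all sections was high for it.

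Each age was then compared with the adult over whole sections by edgeR's quasi-likelihood test on summed UMIs, with Benjamini-Hochberg adjustment over 18104 genes, where a call needed an adjusted p under 0.05 and a fold over 1.5. At P21, 3 of the 10 genes were called higher, against 5.69% of all genes, and none lower, against 2.37% (6 of the 10 had an unadjusted p under 0.05). Agrp was at 19.3 ± 3.34 CPM (SD, n = 2) against 0.42 ± 0.13 in the adult, a log2 fold change of 5.49 ± 0.23 (SE, adjusted p = 1.37e-07). Pomc was at 20.1 ± 4.13 against 1.80 ± 1.46 (log2 fold change 3.49 ± 0.37, adjusted p = 7.28e-05), and Gal at 28.5 ± 2.86 against 8.03 ± 6.91 (1.82 ± 0.53, adjusted p = 0.0280, or 0.153 with DESeq2, which did not call it). The median log2 fold change was 0.48 over the 10 genes and 0.00 over all genes. Ghrh and Ppp1r17, which mark the same nuclei, were also called higher (log2 fold changes 3.63 and 2.83, adjusted p = 4.92e-05 and 1.57e-05), and the part of section level in these results was not tested.

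Crh passed the adjusted p but not the fold at P21 (log2 fold change 0.55 ± 0.13, adjusted p = 0.00998). Avp had the largest negative estimate, a log2 fold change of -4.59 with an SE of 1.68 and an adjusted p of 0.0717. Pmch (1.47 ± 1.33, adjusted p = 0.470), Hcrt (0.08 ± 1.59, adjusted p = 0.989) and Oxt (-2.23 ± 1.64, adjusted p = 0.371) had standard errors over 1 log2 unit, and their differences did not exceed the spread between mice, the 2 adult sections being far apart. Trh and Cartpt were at 0.21 ± 0.20 and 0.42 ± 0.16 (adjusted p = 0.509 and 0.0728).

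In the aged mice 3 of the 10 genes were called higher than in the adult, which is close to the 23.8% of all genes called higher, and none lower, against 4.68%. The 3 were Crh (8.13 ± 0.56 against 4.34 ± 0.20 CPM, SD, n = 2, log2 fold change 0.80 ± 0.12, SE, adjusted p = 0.000358), Cartpt (108 ± 0.04 against 62.4 ± 20.04, 0.69 ± 0.16, adjusted p = 0.00279) and Agrp (1.05 ± 0.22 against 0.42 ± 0.13, 1.19 ± 0.28, adjusted p = 0.00341). The Agrp difference rests on 99 and 96 UMIs in the aged and 27 and 17 in the adult sections, with no high spot in any of them. The hypothalamic region held 19.2% and 24.0% of these UMIs in the aged and 11.1% and 35.3% in the adult mice. Its cortical level was also higher, at 0.83 and 0.63 CPM in the aged against 0.37 and 0.24 in the adult mice. The difference was thus not confined to the hypothalamic region. Trh passed the adjusted p and just missed the fold (0.58 ± 0.20, adjusted p = 0.0265). Pmch, Hcrt, Avp and Oxt had estimates of 0.16 to 1.45 with SEs of 1.30 to 1.58 (adjusted p of 0.382 to 0.925), and Pomc and Gal 0.40 and 0.38 (adjusted p = 0.410 and 0.551). The median was 0.55 over the 10 genes and 0.04 over all genes, or 0.15 over all genes with plain library totals in place of TMM factors.

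Within the hypothalamic region, where 13804 genes were tested, P21 mice had 1 of the 10 genes called higher, against 2.52% of all genes, and none lower, against 1.63%. That gene was Agrp, with a log2 fold change of 6.76 ± 0.27 (adjusted p = 9.23e-06). Pomc, with pituitary spots not taken out, had about the same estimate as over whole sections but missed the threshold (3.496 ± 0.92, adjusted p = 0.0560). Aged mice had none of the 10 called higher, against 6.66% of all genes, or lower, against 4.67% (edgeR, 3 of 10 with an unadjusted p under 0.05, and none called by DESeq2). Crh (0.74 ± 0.31, adjusted p = 0.108), Cartpt (1.06 ± 0.40, adjusted p = 0.0837) and Agrp (1.04 ± 0.46, adjusted p = 0.131) kept positive estimates. With 2 sections an age, an exact permutation test of a single value could not go below p = 0.333 (two-sided).

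Single sections decided several of these results. Adult mouse 2 and aged mouse 1 were the sections of their ages that held Pmch, Hcrt, Avp and Oxt. Without aged mouse 1, the aged log2 fold changes of these genes over whole sections were -5.80, -6.45, -5.05 and -4.52. Over the fits that left out 1 section, they reached 3.07, 9.81, 4.41 and 5.79 at most. Gal at P21 was not called without P21 mouse 1, P21 mouse 2 or adult mouse 1 (adjusted p = 0.102, 0.164 and 0.0951), and its log2 fold change was 1.12 without adult mouse 1 and 3.18 without adult mouse 2. Cartpt in aged mice was below the fold threshold without adult mouse 1 (log2 fold change 0.37, adjusted p = 0.00684) and at 1.05 without adult mouse 2. The numbers of members and of all genes called also moved when 1 section was left out, as given at the end. A fit with 1 section in an age assumes that it varies like the other ages.

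The counts of the gene lists that follow are read against the same shares of all genes over whole sections, 5.69% higher and 2.37% lower at P21 and 23.8% higher and 4.68% lower in aged mice. With the study's filter on detection in 10% of spots, 421 genes were called higher in aged mice, in place of 4301. The paper describes the probes of version 2, used for the aged sections, as designed for more sensitive capture. For rarely counted genes this cannot be told apart from age. Among 26 other hypothalamic peptide genes tested over whole sections, 8 were called higher and 1 lower at P21 than in the adult, with a median log2 fold change of 0.18. Ghrh (growth hormone-releasing hormone) and Npw (neuropeptide W, 630 and 375 UMIs at P21 against 19 and 9 in the adult sections) had log2 fold changes of 3.63 and 4.85, and Prlh, the precursor of prolactin-releasing peptide, had 46 and 69 UMIs at P21 and none in either adult section. The peptide that was lower was Ucn3 (-2.05 ± 0.27, adjusted p = 0.000299). In aged mice 7 of the 26 were higher, close to the 23.8% of all genes, and none lower, with a median of 0.53. Rln3 (relaxin 3) and Nmu (neuromedin U) were among them at 2.84 and 2.83 (adjusted p = 0.000373 and 0.00118), Rln3 from 33 and 54 against 4 and 2 UMIs, and Prlh had 25 and 41 UMIs. Npy, the other peptide of Agrp neurons, was higher over whole aged sections (0.86 ± 0.11, adjusted p = 0.000113) but was not called within their hypothalamic region (-0.05 ± 0.25, adjusted p = 0.908). At P21 it was higher within the hypothalamic region (1.27 ± 0.25, adjusted p = 0.0186) and below the fold threshold over whole sections (0.34 ± 0.11, adjusted p = 0.0443).

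Of 21 receptor genes for these peptides, 7 were called higher and none lower at P21, and 7 higher and 3 lower in aged mice, where 23.8% of all genes were higher. The vasopressin receptor gene Avpr1a was higher in both (2.05 ± 0.67 and 2.53 ± 0.60, adjusted p = 0.0465 and 0.00374). Mc3r, a melanocortin receptor of the arcuate nucleus, was higher at P21 both over whole sections (1.90 ± 0.25, adjusted p = 0.000324) and within the hypothalamic region (1.74 ± 0.40, adjusted p = 0.0350). It was also higher over whole aged sections (0.84 ± 0.26, adjusted p = 0.0146). Both orexin receptor genes were higher over whole sections at P21, Hcrtr1 by 0.89 and Hcrtr2 by 0.68 on the log2 scale (adjusted p = 0.00546 and 0.0244). Neither was called within the hypothalamic region at P21 (adjusted p = 0.111 and 0.162). Hcrtr2 was also higher over whole aged sections (0.70 ± 0.19, adjusted p = 0.00757), and Hcrtr1 was not called there (0.13 ± 0.19, adjusted p = 0.567). In aged mice the lower ones were Mc5r (-1.43), Npy2r (-0.76) and Crhr1 (-0.64), the main Crh receptor. Mc5r was higher at P21, by 1.18. Within the hypothalamic region 1 of 18 receptor genes was called at P21 and none in aged mice.

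Few peptide-processing and dense-core vesicle genes were called. None of the 23 was called at P21 in either scope (medians 0.01 and 0.02). In aged mice Vgf, a granin-like vesicle protein, and Crhbp, the Crh-binding protein, were higher over whole sections (0.73 ± 0.07 and 0.70 ± 0.07, adjusted p = 2.33e-05 and 2.86e-05), and within the hypothalamic region Vgf, Crhbp and Pam were higher and Trhde, the enzyme that degrades thyrotropin-releasing hormone, was lower (-0.97 ± 0.18, adjusted p = 0.00609).

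Of 27 transcription factors of hypothalamic neurons, 9 were called higher at P21, where 5.69% of all genes were, and 11 in aged mice, where 23.8% were, and none lower. Bsx, a factor of Agrp and Npy neurons, was called higher at P21 (4.55 ± 0.38, adjusted p = 1.30e-05) and in aged mice (2.99 ± 0.42, adjusted p = 0.000187). It had 194 and 147 UMIs at P21, 7 and 5 in the adult and 68 and 124 in the aged mice. Rax, of the tanycytes that line the third ventricle, had 111 and 79 UMIs at P21, 1 and 0 in the adult and 49 and 61 in the aged mice. At P21, 45 and 44 of them lay in the hypothalamic region (3.27 and 5.32 CPM there, against 1.23 and 1.86 over whole sections). In aged mice only 5 and 10 did (0.58 and 0.58 CPM, against 0.60 and 0.57), so the aged counts were not concentrated there. Fos, an immediate early gene in that list, was higher in aged mice by 1.99 (adjusted p = 0.000159).

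Markers of other cells moved with age too. All 4 erythrocyte genes were called higher at P21 (summed level 2266 and 1284 CPM against 320 and 166 in the adult mice), as were all 6 fiber tract genes and 4 of 7 pituitary genes tested. In aged mice 6 of the 7 pituitary genes were called higher, 5 of the 6 fiber tract genes lower and none of the erythrocyte genes. Of the 5 tanycyte genes, 2 were called higher at P21 and 1 in aged mice. The part of these in the values of the neuropeptide genes was not tested, apart from the Pomc values given without pituitary spots. Of the 17 section level markers tested, 6 were higher at P21 (median log2 fold change 0.81) and 3 in aged mice (0.83), and none was lower.

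The genes whose pattern over spots was most like each member (Pearson correlation of log values in each section, mean of 6 sections, 13526 genes compared) are given as a description, since spots of a section share its library and depth. Candidates had to be detected in at least 1% of spots of every section, which left out Hcrt and Oxt among others. Among the candidates, Pmch was nearest to Sparc (mean r = 0.41, 0.15 to 0.64 between sections), below its value with Hcrt (0.44). Hcrt was nearest to Pmch (0.44, 0.04 to 0.80). Oxt was nearest to Avp (0.40, 0.01 to 0.86). Among the candidates, Avp was nearest to Otp (0.21), a factor required for neuroendocrine neurons, below its value with Oxt (0.40). Cartpt and Gal both had Baiap3 first (0.46 and 0.37). Trh was nearest to Six3 (0.26), a marker of the reticular thalamic region, and Crh to Vip (0.23), a marker of cortical interneurons. Agrp was nearest to Pomc (0.19) and Pomc to Gpx3 (0.21). Of all genes, Pmch and Hcrt had the highest and second highest Moran's I in aged mouse 1 (0.920 and 0.887, ranks 1 and 2 of 19357), while in aged mouse 2 they ranked 871 and 6798 of 19363.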

How the data were processed

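Spots under tissue were measured in 6 sections, 2 mice an age per the series' design text. The authors deposited counts (UMIs per gene and spot, not normalized) made with Space Ranger from probe-based libraries and mm10. File headers name Space Ranger 2.0.0 for P21 and adult and 3.1.1 for aged sections, and the submitters' processing notes name 2.1.0 and Seurat 5.1.0. Moran's I was taken as a deposited score. The members and gene lists were chosen with earlier results of these data known. Genes named from other lists are called ones, at most the 3 largest folds in a direction, and Hcrtr1, Hcrtr2 and Npy were added after their values were seen.

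Spots under 250 genes or 500 UMIs were removed. Log-normalized values of 3000 variable genes, without the members and lists, were standardized by section and clustered (10 principal components, 20 neighbours, Leiden resolution 0.3, leidenalg 0.10.2), giving 14 clusters named by marker panels. Regions come from the same spots, so differences between regions have no test. UMIs summed per section or hypothalamic region (42422997 to 106783660 a section) were tested with edgeR 4.0.16 (R 4.3.3, TMM, filterByExpr, all 6 sections, age as the only term), checked on simulated data. Spots are no replicates. The study's Wilcoxon test over spots was not used, nor was its filter on detection in 10% of spots, which 6 of the 10 members pass. Alternatives were DESeq2 1.42.0, plain CPM computed from the deposited counts, no filter, fewer sections, thinning, a replicate block and other region rules. Intervals and floors cover counting error only. Slides of 1 version share spot barcodes by design (2612 to 3364 between sections). No doublet caller was run. One section level marker is not reported here.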

Additional observations from a re-analysis of the deposited data

How the results depend on the processing

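Outside leave-one-out fits, 286 member fold changes kept direction and call, 12 gained a call, 1 (Gal at P21 over whole sections, with DESeq2) lost it and 4 turned direction. Those 4 were Cartpt at P21 in the hypothalamic region (0.0090 as reported, -0.027 with thinned totals, -0.18 with interior spots), and Pmch in aged mice with a replicate block (-0.45 over whole sections, -0.064 in the region). The replicate numbers do not pair the mice (correlations of deviations -0.40 to 0.03), and with the replicate block the members called were 3, 3, 1 and 0, as without it.

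Members called at P21 in the region, 1 as reported, were 5 with only the 2 ages, and 2 with thinned totals or a region by panel score. They were 0 with the study's detection filter of 10% of spots, which left 6 of the 10 members to test. In aged mice the panel score gave 1 in place of 0. Over whole sections the detection filter, again with 6 members tested, gave 1 in place of 3 at each age. With it 571 genes were called at P21 in place of 1460, and 1017 in aged mice in place of 5148, 421 higher and 596 lower in place of 4301 and 847 (plain CPM, 4778 and 483). At P21 in the region, genes called were 872 with only the 2 ages and 289 with interior spots, in place of 573.

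Leaving out 1 section, members called ranged from 1 to 5 (P21, region), 2 to 5 (P21, whole), 0 to 6 (aged, region) and 2 to 9 (aged, whole), and genes called from 40 to 864, 949 to 1456, 1080 to 1773 and 4561 to 5907. In the same fits these log2 fold changes crossed 0 at P21: Hcrt -0.92 to 9.41 (whole) and -1.69 to 9.84 (region), Oxt -3.80 to 2.13 and -6.24 to 1.93, Trh -0.011 to 0.45 and -1.24 to 1.41, and in the region Pmch -0.16 to 3.71 and Cartpt -0.52 to 0.84. In aged mice they were Pmch -5.80 to 3.07 and -6.11 to 3.69, Hcrt -6.45 to 9.81 and -8.93 to 11.50, Avp -5.05 to 4.41 and -6.52 to 6.57, Oxt -4.52 to 5.79 and -6.22 to 8.51, Gal -0.63 to 1.73 and -0.93 to 2.66, Pomc -0.29 to 1.62 and -1.44 to 4.79, and in the region Trh -1.30 to 2.70. The cause was not tested. With thresholds of 1000 or 2000 CPM or thinned spots, 92 shares of high spots stayed within the exact 95% binomial interval of the reported share and 88 did not. Among hypothalamic spots alone, between 0 and 2 of the 3 genes most like each member were the same.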
